A study of Mus musculus with 12 samples.

Results

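A set of 10 cytokine receptor genes was followed across microglia of 4 brain regions, starting from Il10ra, whose RNA was lowest in cortex. The set consisted of Il10ra, Il10rb, Il6ra, Il6st, Il4ra, Il13ra1, Ifngr1, Ifnar1, Tnfrsf1a and Tnfrsf1b, which were 10 of the 23337 gene symbols in the count table. They were selected by name as interleukin, interferon and tumour necrosis factor (TNF) receptors, and Il10ra was selected because of its regional pattern, so its levels are given as a description with no test. All 10 passed the filter on low counts, under which 12217 genes were compared.

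The 12 libraries were 3 each from cerebellum, striatum, hippocampus and cortex of males of the C57BL/6N strain, wild type in genotype and aged 60 days after birth, with no treatment named in the labels. Each library was made from 3000 live cells of the TMEM119+ gate, which were also CD45 low and CD11b+, sorted from tissue pooled from 3 to 5 mice. Nothing in the labels says whether the 3 pools of 1 region held different mice. The p-values therefore reflect differences among libraries that may be technical. RNA was copied and amplified with the Smart-Seq v4 kit, which covers whole transcripts and does not mark the strand.

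Interleukin 10 (IL-10), IL-6, IL-4, IL-13 and the interferons act through paired receptor chains that carry Janus kinases (JAKs), which phosphorylate STAT transcription factors. TNF receptors lack kinases and recruit adaptor proteins. In microglia, the resident macrophages of the brain, IL-10 signalling is known to restrain inflammatory activation, whereas interferon gamma and TNF promote it.

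Upstream sequences are shown for Tnfrsf1b and Ifngr1, the receptor genes whose RNA varied most like Il10ra by Pearson correlation over the 12 libraries. They are also shown for Tnfrsf1a, the other TNF receptor, which varied least like it by that measure. Other measures of likeness ordered the genes differently. The sequences are the 250 bases before the RefSeq transcription start (GRCm38.p6), read 5′ to 3′ on the gene's strand. Tnfrsf1b is at chr4:145246871-145247120 on the minus strand, Ifngr1 at chr10:19591699-19591948 on the plus strand and Tnfrsf1a at chr6:125349473-125349722 on the plus strand, where the GENCODE gene already begins further upstream. Capitals mark matches to the motifs described with the TNF receptors.
Tnfrsf1b: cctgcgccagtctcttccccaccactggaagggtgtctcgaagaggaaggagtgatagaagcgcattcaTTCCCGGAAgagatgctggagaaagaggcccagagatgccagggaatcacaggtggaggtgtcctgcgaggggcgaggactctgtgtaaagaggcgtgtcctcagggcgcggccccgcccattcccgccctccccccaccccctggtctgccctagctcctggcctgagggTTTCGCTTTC
Ifngr1: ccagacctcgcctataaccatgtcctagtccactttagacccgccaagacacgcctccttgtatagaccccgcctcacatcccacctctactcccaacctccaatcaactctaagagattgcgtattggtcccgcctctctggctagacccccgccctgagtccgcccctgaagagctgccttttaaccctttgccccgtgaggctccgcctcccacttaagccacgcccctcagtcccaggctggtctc
Tnfrsf1a: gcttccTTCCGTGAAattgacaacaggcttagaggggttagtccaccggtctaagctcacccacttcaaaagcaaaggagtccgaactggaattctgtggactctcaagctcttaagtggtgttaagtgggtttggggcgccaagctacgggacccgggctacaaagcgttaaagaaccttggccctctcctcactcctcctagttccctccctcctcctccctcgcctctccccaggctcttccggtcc

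The libraries held between 6479839 counts (striatum 2) and 14833340 counts (cortex 2). Striatum 2 stood apart: its log2 CPM (TMM-scaled read counts relative to the library total) correlated with the other 11 libraries at 0.748 to 0.771, against 0.858 to 0.936 among those 11. It lacked reads for 986 of 10018 well-expressed genes (mean count 50 or more; 9.84%), and each of the others lacked reads for 4 to 44 of them. Results that rest on it are given with and without it. All 8 microglia markers were present at a mean of at least 300.4 CPM in every region, and the sort gene Tmem119 averaged 2122 CPM in cerebellum, 1733 CPM in striatum, 1933 CPM in hippocampus and 2016 CPM in cortex.

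Il10ra encodes the ligand-binding chain of the IL-10 receptor (chromosome 9, 45253837 to 45269149, minus strand, GRCm38). Its level was 632, 543 and 617 CPM in cerebellum libraries 1 to 3 and 579.6, 556 and 569 CPM in striatum. It was 575, 433 and 465 CPM in hippocampus and 385, 426 and 413 CPM in cortex. All 9 libraries from outside cortex were above all 3 cortex libraries, with hippocampus 2 the closest to them. The same held for 38 of 12217 genes (0.311%), and nothing is read from that share because Il10ra was selected for this pattern.

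The region means of Il10ra were 598 ± 47.8 CPM in cerebellum, 568 ± 11.6 CPM in striatum, 491 ± 74.7 CPM in hippocampus and 408 ± 21.0 CPM in cortex (SD, n = 3 each). Against cortex, the log2 difference was 0.55 in cerebellum, 0.48 in striatum and 0.27 in hippocampus (SE 0.15 each). Cerebellum and striatum overlapped, as did hippocampus with both of them, so only cortex lay apart in this order. The hippocampus difference depended on 1 library and was 0.14 without hippocampus 1. In these sorted pools, fewer cells expressing a gene and less of its RNA per cell cannot be told apart.

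The microglia markers moved with Il10ra. The summed level of the 8 markers was 24501 to 30719 CPM in cerebellum, 25332 to 29730 CPM in striatum, 24571 to 27290 CPM in hippocampus and 21787 to 23722 CPM in cortex, without overlap between cortex and the rest. Of these markers, 6 of 8 had their lowest mean in cortex, the exceptions being Tmem119 and Sall1, and across the 12 libraries the summed level had r = 0.80 with Il10ra. Per 1000 CPM of these markers, a scale chosen after seeing the data, Il10ra stood at 22.0 ± 1.38 CPM in cerebellum, 20.3 ± 1.95 in striatum, 18.9 ± 2.16 in hippocampus and 17.7 ± 0.246 in cortex (SD, n = 3 each). On that scale cerebellum and striatum remained above all cortex libraries, which spanned 17.5 to 18.0, whereas hippocampus reached down to 16.8 and overlapped them. The part of the microglia markers in the Il10ra pattern was not tested further.

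Among the markers of other cells, border-associated macrophage genes summed to 256 to 655 CPM in cerebellum, 402 to 748 CPM in striatum, 371 to 678 CPM in hippocampus and 277 to 858 CPM in cortex, and had r = −0.04 with Il10ra. The monocyte and neutrophil markers summed to at most 13.1 CPM in any library, and Ly6c2, a monocyte marker, was at 0 in all 12. Of the lymphocyte markers, the T cell genes Cd3e and Cd3g were at 0 in all libraries, and the highest sum was 82.0 CPM, in striatum. Choroid plexus and ependymal markers summed to 0.348 to 291 CPM in cerebellum, 47.6 to 835 CPM in striatum, where striatum 2 was highest, 0 to 56.2 CPM in hippocampus and 0 to 115 CPM in cortex. In the remaining lists, the highest sum in any library was 35.9 CPM for neurons, 108 CPM for astrocytes, 49.6 CPM for oligodendrocytes and 45.1 CPM for endothelial cells.

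**Figure D1:**
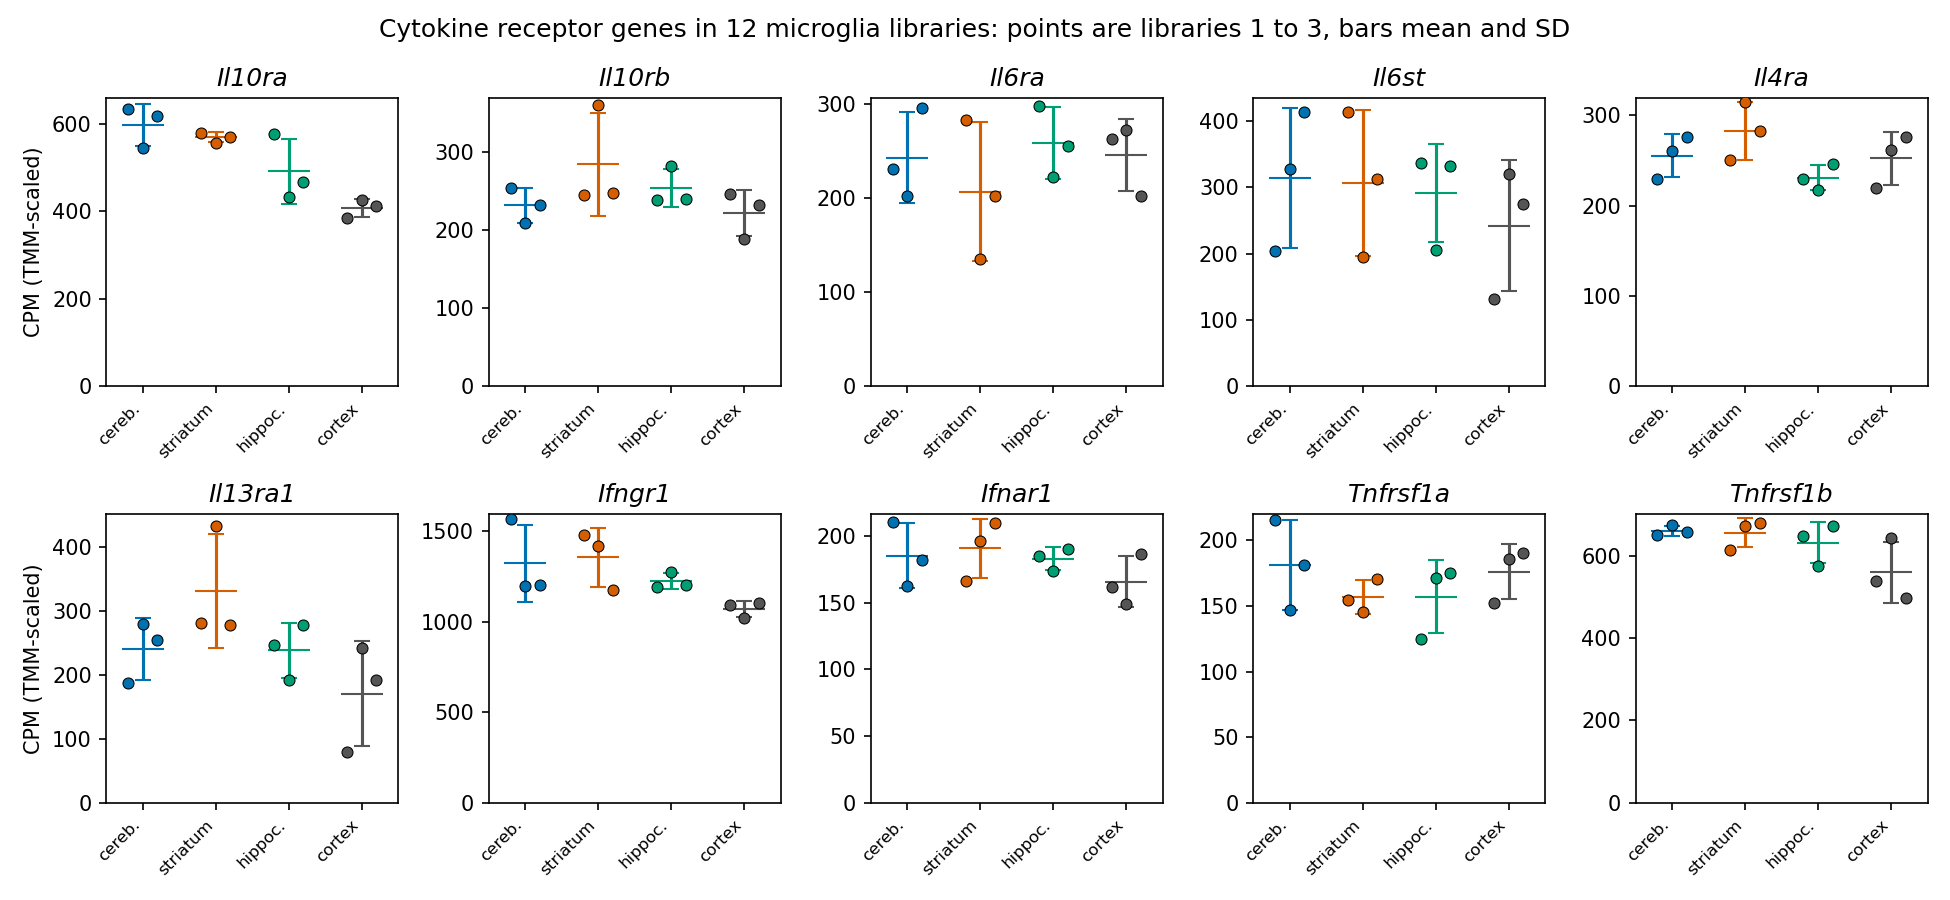
TMM-scaled CPM (y axis from 0) of the 10 receptor genes in cerebellum, striatum, hippocampus and cortex; points are libraries 1 to 3 from left to right, horizontal lines means and vertical bars SD. For Il10ra and Ifngr1 all 9 points of the other regions lie above all 3 cortex points, whereas Il6ra and Tnfrsf1a have their lowest mean in striatum and Il4ra in hippocampus.

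Il10ra was chosen for being lowest in cortex and is left out of the following counts. Cortex was the lowest region for 6 of the other 9 genes: Il10rb, Il6st, Il13ra1, Ifngr1, Ifnar1 and Tnfrsf1b. Of all genes tested, 23.2% had their lowest mean in cortex. Of these 6, only Ifngr1 had all 9 other libraries above the 3 cortex libraries (1 of 9, beside 0.311% of all genes), and the rest overlapped cortex in at least 1 region. Il10rb left this group without cerebellum 1 or without cortex 2, and Il6st left it without cortex 1. On the scale of the microglia markers, Il6st, Il13ra1 and Ifngr1 were lowest in cortex (3 of 9), beside 10.4% of all genes. The full order of Il10ra, cerebellum over striatum over hippocampus over cortex, was shared by Il6st and Tnfrsf1b (2 of 9), beside 3.32% of all genes. Without striatum 2, Il6st was highest in striatum (363 CPM, against 315 CPM in cerebellum), and of these genes only Tnfrsf1b kept the order. Tests of the 9 genes other than Il10ra over the 4 regions gave 0 calls (edgeR, adjusted p = 1.00 each over all genes tested, against 0.0% of all genes called), and the lowest unadjusted p was 0.098, for Il13ra1. In that comparison 222 of 12217 genes had p under 0.05 before adjustment in edgeR, 5 genes were called by DESeq2 and 0 by limma-voom.

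Il10rb encodes the signalling chain of the IL-10 receptor, which is shared with receptors of the IL-22 family (chromosome 16, 91406164 to 91425834, plus strand). It averaged 232 ± 22.5 CPM in cerebellum, 285 ± 66.2 CPM in striatum, 254 ± 24.7 CPM in hippocampus and 223 ± 29.8 CPM in cortex (SD, n = 3 each). Its highest library was striatum 2 at 361 CPM, and the other 11 libraries lay between 189 and 283 CPM, with all regions overlapping cortex. Its log2 difference from cortex was 0.06 in cerebellum and 0.35 in striatum (SE 0.19 each), and the striatum difference was 0.15 without striatum 2. The r of Il10ra with this partner chain over the 12 libraries was 0.18, and 0.10 without striatum 2.

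Levels of different genes were compared as CPM per kilobase (kb) of exon. On this scale the ratio of Il10ra to Il10rb was 2.81 ± 0.0899 in cerebellum, 2.25 ± 0.497 in striatum, 2.13 ± 0.475 in hippocampus and 2.03 ± 0.384 in cortex (SD, n = 3 each). Il10ra exceeded Il10rb in every library, from 1.67 times in hippocampus 2 to 2.89 times in cerebellum 3. All 3 cerebellum ratios lay above those of the other 9 libraries, and the ranges of striatum, hippocampus and cortex overlapped. The gap was narrow, with cerebellum 1 at 2.71 and hippocampus 1 at 2.62. Il10ra was selected for its regional pattern, so nothing is read from this separation.

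Il6ra, the IL-6 binding chain (chromosome 3, 89864059 to 89913196, minus strand), was lowest in striatum. It averaged 243 ± 48.3 CPM in cerebellum, 207 ± 74.2 CPM in striatum, 259 ± 37.9 CPM in hippocampus and 246 ± 38.2 CPM in cortex (SD, n = 3 each). The low striatum mean came with striatum 2, at 135 CPM, while striatum 1 and striatum 3 held 283 and 202 CPM, and the other regions spanned 202 to 298 CPM. Il6st encodes gp130, the signalling chain shared by the IL-6 family (chromosome 13, 112464070 to 112510086, plus strand). Il6st averaged 315 ± 106 CPM in cerebellum, 307 ± 109.8 CPM in striatum, 291 ± 74.0 CPM in hippocampus and 242 ± 98.3 CPM in cortex. It varied more within regions than any other gene of the set, with a mean coefficient of variation (CV) of 33.8%, so no order of its regions can be given beyond the spread. Its lowest library was cortex 1, at 132 CPM, and its highest was striatum 1, at 414 CPM.

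Il4ra, the chain that binds IL-4 and takes part in both IL-4 and IL-13 receptors (chromosome 7, 125552120 to 125579474, plus strand), did not follow Il10ra. It was at 229, 261 and 276 CPM in cerebellum, 251, 314 and 282 CPM in striatum, 229, 218 and 246 CPM in hippocampus and 219.6, 261 and 276 CPM in cortex. All 3 striatum libraries lay above all 3 hippocampus libraries (log2 difference 0.29, SE 0.16), with the closest values in striatum 1 and hippocampus 3, and the cerebellum and cortex values nearly coincided. Il13ra1, which pairs with Il4ra to bind IL-13 (chromosome X, 36112110 to 36171259, plus strand), was at 188, 281 and 255 CPM in cerebellum and 281, 434 and 279 CPM in striatum. It was at 247, 192 and 278 CPM in hippocampus and 79.5, 242 and 192 CPM in cortex. Striatum 2 was its highest library and cortex 1 its lowest, 5.46 times apart.

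The 3 striatum libraries lay above all 3 cortex libraries and all 3 hippocampus libraries in Il13ra1. The log2 difference was 0.95 (SE 0.34) from cortex, the largest of any gene of the set against cortex, and 0.47 (SE 0.34) from hippocampus. Without cortex 1 the first was 0.61, and without striatum 2 the second was 0.23. Between striatum and hippocampus, Il4ra and Il13ra1 were the 2 of 10 genes whose libraries did not overlap, both higher in striatum, beside 4.9% of all genes. None was lower in striatum without overlap, beside 6.59%. Neither passed (edgeR, adjusted p = 0.95 each, with 0.0% of all genes called, 530 at an unadjusted p under 0.05, and no gene called by DESeq2 or limma-voom). Per kb of exon, the ratio of Il13ra1 to Il4ra was 1.52 ± 0.209 in cerebellum, 1.88 ± 0.324 in striatum, 1.66 ± 0.211 in hippocampus and 1.07 ± 0.458 in cortex (SD, n = 3 each), so Il13ra1 was the higher of the pair in all regions but not in cortex 1, where the ratio was 0.586. Il2rg, the common gamma chain that completes the other IL-4 receptor, was at 0.253 ± 0.109 of Il4ra per kb over the 12 libraries (SD), and at 0.16 CPM in striatum 2.

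Ifngr1, the ligand-binding chain of the interferon gamma receptor (chromosome 10, 19591949 to 19610229, plus strand), was the highest of the set and the only other gene for which all 9 libraries lay above all 3 cortex libraries. It was at 1565, 1195 and 1202 CPM in cerebellum and 1478, 1416 and 1172 CPM in striatum. It was at 1191, 1274 and 1201 CPM in hippocampus and 1089, 1020.3 and 1104 CPM in cortex. The 3 other regions overlapped one another, with cerebellum 1 and striatum 1 highest, and the gap between the lowest of them, striatum 3, and cortex 3 was narrower than the spread within cerebellum or striatum.

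The region means of Ifngr1 were 1321 ± 212 CPM in cerebellum, 1355 ± 162 CPM in striatum, 1222 ± 45.1 CPM in hippocampus and 1071 ± 44.7 CPM in cortex (SD, n = 3 each). The log2 difference from cortex was 0.30 in cerebellum (SE 0.15), 0.34 in striatum (SE 0.15) and 0.19 in hippocampus (SE 0.14). Without cerebellum 1 the first was 0.16. Per 1000 CPM of microglia markers it stood at 48.4 ± 2.77 CPM in cerebellum, 48.0 ± 1.99 in striatum, 47.3 ± 3.17 in hippocampus and 46.6 ± 3.49 in cortex, where all regions overlapped. Ifngr2, the second chain, was at 274 ± 40.3 CPM in cerebellum, 264 ± 43.1 CPM in striatum, 285 ± 38.1 CPM in hippocampus and 255 ± 15.4 CPM in cortex. Per kb, Ifngr1 exceeded Ifngr2 from 5.28 to 8.60 times over the 12 libraries.

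Ifnar1, a chain of the receptor for interferons alpha and beta (chromosome 16, 91485238 to 91507441, plus strand), averaged 185 ± 24.3 CPM in cerebellum, 191 ± 22.3 CPM in striatum, 183 ± 8.61 CPM in hippocampus and 166 ± 19.1 CPM in cortex (SD, n = 3 each). All regions overlapped, and the highest region mean was 1.15 times the lowest, the smallest such ratio of the set. Per kb it stood at 0.594 ± 0.109 of Ifnar2, its partner chain, over the 12 libraries (SD). Ifnar2, Il10rb, Ifnar1 and Ifngr2 lie in this order on chromosome 16 between 91372783 and 91565623, all on the plus strand. Of these neighbours, Il10rb, Ifnar1 and Ifngr2 had their lowest mean in cortex, beside 23.2% of all genes, whereas Ifnar2 was lowest in hippocampus (153 ± 21.8 CPM). Il10rb lost this rank without cerebellum 1 or without cortex 2. The log2 difference of Ifngr2 from cortex was 0.10 in cerebellum, 0.05 in striatum and 0.16 in hippocampus (SE 0.18 each).

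Tnfrsf1b encodes TNF receptor 2, which lacks a death domain and binds TRAF adaptors (chromosome 4, 145213463 to 145246870, minus strand). It was at 650.1, 674 and 657 CPM in cerebellum, 615, 672 and 680.1 CPM in striatum, 647, 576 and 673 CPM in hippocampus, and 539, 643 and 499 CPM in cortex. Cerebellum lay above all cortex libraries, while cortex 2 reached into the ranges of striatum and hippocampus. Its means were 660.5 ± 12.5 CPM in cerebellum, 656 ± 35.3 CPM in striatum, 632 ± 49.9 CPM in hippocampus and 560.2 ± 74.3 CPM in cortex (SD, n = 3 each), with a log2 difference of cerebellum from cortex of 0.24 (SE 0.14), or 0.16 without cortex 3. Per 1000 CPM of microglia markers, the 4 regions lay between 23.4 ± 3.07 CPM in striatum and 24.5 ± 3.19 CPM in cerebellum, with cortex at 24.3 ± 3.02 CPM. On that scale Tnfrsf1b was not lowest in cortex.

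Tnfrsf1a, TNF receptor 1 with its death domain (chromosome 6, 125349362 to 125362484, plus strand), averaged 181 ± 34.2 CPM in cerebellum, 157 ± 13.1 CPM in striatum, 157 ± 28.1 CPM in hippocampus and 176 ± 20.6 CPM in cortex (SD, n = 3 each). All regions overlapped, and the library extremes were hippocampus 1 at 125 CPM and cerebellum 1 at 215 CPM. The r between the TNF receptors over the 12 libraries was −0.15. Per kb, Tnfrsf1b exceeded Tnfrsf1a by 2.54 ± 0.538 times in cerebellum, 2.85 ± 0.254 times in striatum, 2.80 ± 0.642 times in hippocampus and 2.17 ± 0.342 times in cortex. Every striatum ratio was above every cortex ratio, and the other regions overlapped cortex.

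In the sequences given above, both TNF receptor genes carry a match to the STAT dimer motif TTCNNNGAA, starting 181 bases before the start in Tnfrsf1b and 244 bases before it in Tnfrsf1a. Tnfrsf1b also carries, ending at the start, a reverse-strand match to the interferon-stimulated response element (GAAA, any 2 bases, GAAA), 10 bases upstream. Both strands were searched in the 250-base windows of the 8 genes with an entry, which were all but Il10ra and Il10rb. The STAT motif was present in 2 of the 8, beside 7.02% of 32851 windows, and the interferon motif in 1 of the 8, beside 2.98%. GAGGAAGT, bound by the myeloid factor PU.1, was in 0 of the 8, beside 2.44% of windows. The window of Ifngr1 held no match to any of the 3 motifs.

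**Figure D2:**
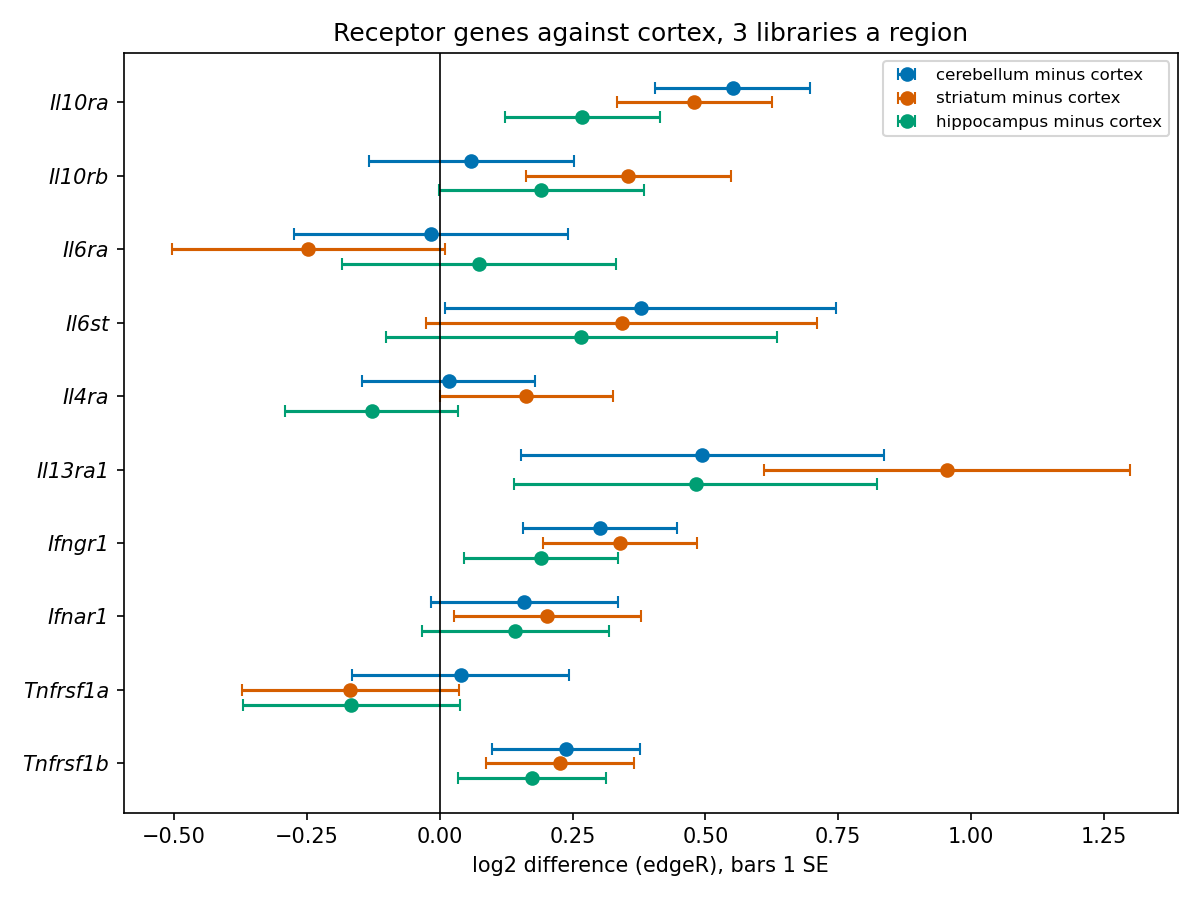
Log2 difference of each receptor gene from cortex (x axis, edgeR fit, 0 marked) for cerebellum, striatum and hippocampus; points are estimates and bars 1 SE, from 3 libraries a region that share the same cortex libraries. Il10ra, Il10rb, Il6st, Il13ra1, Ifngr1, Ifnar1 and Tnfrsf1b lie above 0 in all 3 regions, and Il13ra1 is farthest from 0 in striatum at 0.95. Il6ra, Il4ra and Tnfrsf1a lie on both sides of 0.

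Against cortex, the share of the 9 genes other than Il10ra above 0 was 8 of 9 in cerebellum (50.9% of all genes). It was 7 of 9 in striatum (45.7%) and 7 of 9 in hippocampus (47.1%). The 3 comparisons share the cortex libraries, so they are not separate results. The median log2 difference of these 9 genes was 0.16 in cerebellum (0.01 over all genes), 0.23 in striatum (−0.06) and 0.17 in hippocampus (−0.02). Libraries did not overlap with cortex for Il10ra, Ifngr1 and Tnfrsf1b in cerebellum (3 of 10, beside 3.82% of all genes), for Il10ra, Il13ra1 and Ifngr1 in striatum (3 of 10, beside 4.61%) and for Il10ra and Ifngr1 in hippocampus (2 of 10, beside 3.63%). Nothing is read from these counts, since the choice of genes used these comparisons. No gene of the set lay below cortex without overlap, beside 2.93% of all genes in cerebellum, 5.96% in striatum and 3.05% in hippocampus, and none had all 9 libraries below cortex, beside 0.319%.

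None of the 9 genes other than Il10ra passed in any pair of regions (edgeR, lowest adjusted p = 0.80, in striatum minus cortex, with 0.0% of all genes called in each pair). Of their 54 comparisons between pairs, 2 had an unadjusted p under 0.05, those of Il13ra1 and Ifngr1 between striatum and cortex. Over all genes, edgeR gave unadjusted p-values under 0.05 for 189 genes in cerebellum minus cortex, 683 in striatum minus cortex and 124 in hippocampus minus cortex, where DESeq2 called 7, 13 and 5 genes and limma-voom 0 each. In cerebellum minus hippocampus there were 156 such genes and in cerebellum minus striatum 293, where DESeq2 called 2 and 3 genes and limma-voom 0 each. Cerebellum libraries were also paired with the cortex libraries of the same number, although this pairing is uncertain. The r of their deviations from the region means was 0.10 to 0.29, while libraries of different numbers reached 0.20. Of the 9 genes, Il10rb, Il6st, Il13ra1, Ifngr1 and Tnfrsf1b were higher in cerebellum in 3 of 3 pairs (5 of 9, beside 14.8% of all genes), although Il10rb stood at 233 CPM in cerebellum 3 and 232 CPM in cortex 3. With these 6 libraries fitted as pairs, the log2 difference was 0.41 (SE 0.15) for Il6st and 0.61 (SE 0.20) for Il13ra1, and neither passed (edgeR, adjusted p = 0.71 each, with 0.0% of all genes called). Without the first pair the value for Il13ra1 was 0.30. Between cerebellum and hippocampus 0 of the 10 genes were free of overlap, beside 4.08% of all genes higher and 3.55% lower in cerebellum, and their log2 differences ran from −0.13 (Il10rb) to 0.28 (Il10ra). Between cerebellum and striatum it was also 0 of 10, beside 3.95% higher and 2.4% lower, with differences from −0.46 (Il13ra1) to 0.23 (Il6ra).

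By level per kb of exon, averaged over the 12 libraries, Ifngr1 stood at 436 CPM, followed by Tnfrsf1b at 164 CPM and Il10ra at 148 CPM. Il13ra1, Il10rb and Tnfrsf1a were close together at 66.1, 65.2 and 64.8 CPM per kb. Il4ra had 42.5, Ifnar1 30.5, Il6ra 27.6 and Il6st 26.0 CPM per kb. In every region Ifngr1 was above all others by more than its SD, while Tnfrsf1b and Il10ra overlapped in cerebellum, with 173 ± 3.27 and 171 ± 13.7 CPM per kb. In cortex they were 147 ± 19.5 and 117 ± 6.01 CPM per kb. Il6ra averaged 1.16 ± 0.490 times Il6st per kb (SD, 12 libraries).

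**Figure D3:**
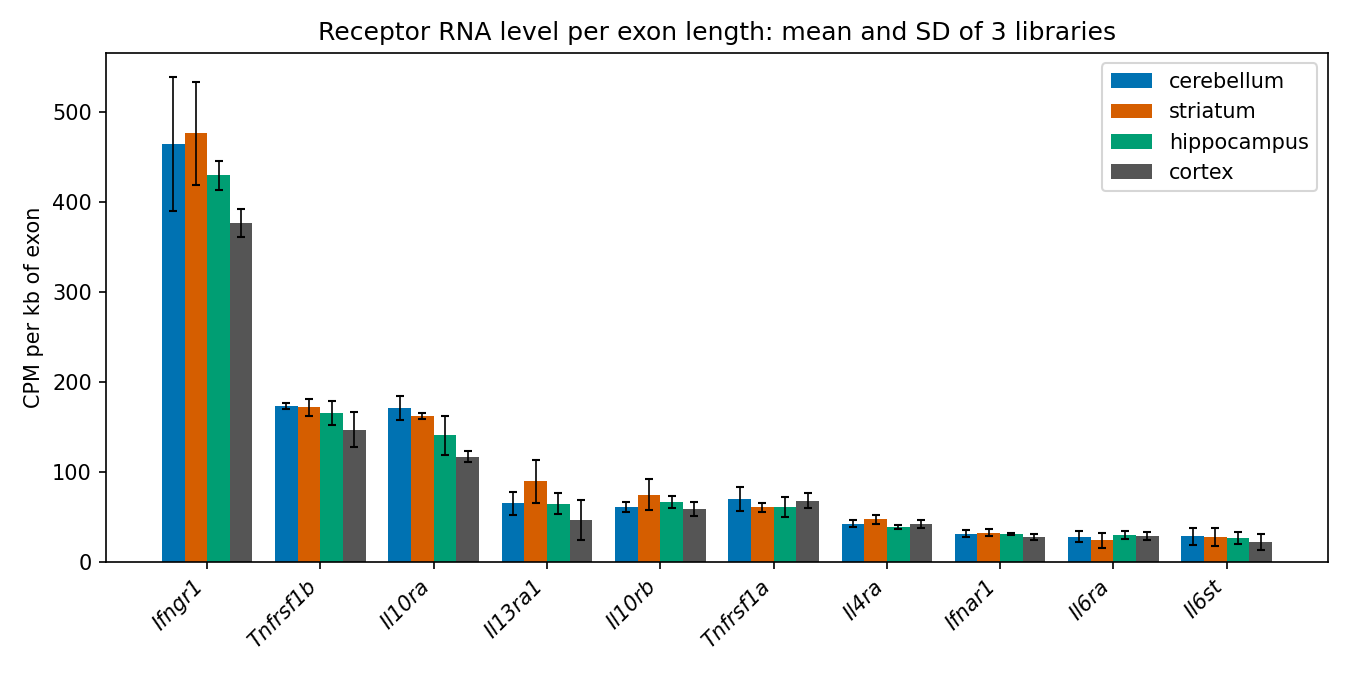
Receptor RNA as CPM per kb of exon (y axis from 0) in cerebellum, striatum, hippocampus and cortex; bars are means and error bars SD of 3 libraries. Ifngr1 is highest at 376 to 476 CPM per kb, Tnfrsf1b and Il10ra come next at 117 to 173, and the other genes have means of at most 89.3.

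Likeness to Il10ra was measured as the Pearson correlation of log2 CPM over the 12 libraries, which share a sequencing pool and differ in depth; the values are descriptions, not tests. Tnfrsf1b (r = 0.69) and Ifngr1 (0.66) were most alike, followed by Il13ra1 (0.57), Ifnar1 (0.52) and Il6st (0.45). Without cortex 1, r was 0.31 for Il13ra1 and 0.17 for Il6st. Il4ra (0.27), Il10rb (0.18), Il6ra (−0.01) and Tnfrsf1a (−0.08) were less so. Among 9056 genes with a mean of at least 10 CPM, the median r was −0.04 and the range from the 5th to the 95th percentile was −0.50 to 0.51. Spearman's rho was lower for Tnfrsf1b (0.45) and about the same for Ifngr1 (0.70).

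For Tnfrsf1b, Ifngr1 and Il13ra1 this likeness lay mainly in the region means. For Ifnar1 it did so in part, and for Il6st r changed little from 0.45. After each region's mean was subtracted, r with Il10ra was 0.24 for Tnfrsf1b, 0.07 for Ifngr1, 0.20 for Il13ra1, 0.27 for Ifnar1 and 0.38 for Il6st, and Il6ra was highest at 0.45. On the scale of the microglia markers the median r of the 9 genes with Il10ra was 0.013, against 0.45 on the CPM scale. There Tnfrsf1b had r = 0.32, and that of Ifngr1 was below 0, at −0.19.

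The 5 genes outside the set with the highest r were Lactb2 (0.91), a mitochondrial RNA-cleaving enzyme, Slco2b1 (0.89), an organic anion transporter of microglia, Mtmr12 (0.83), a myotubularin-related pseudophosphatase, Cyb561d1 (0.82) and Stau1 (0.82), an RNA-binding protein. Each of these had its lowest mean in cortex. Their selection by likeness to Il10ra largely fixed this in advance, so nothing is read from it. Slco2b1 averaged 1837 ± 42.6 CPM in cerebellum, 1822 ± 85.8 CPM in striatum, 1628 ± 106 CPM in hippocampus and 1494 ± 200 CPM in cortex. Lactb2 averaged 60.6 ± 3.29 CPM in cerebellum, 53.8 ± 1.31 CPM in striatum, 53.1 ± 4.35 CPM in hippocampus and 42.3 ± 3.15 CPM in cortex (SD, n = 3 each).

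**Figure D4:**
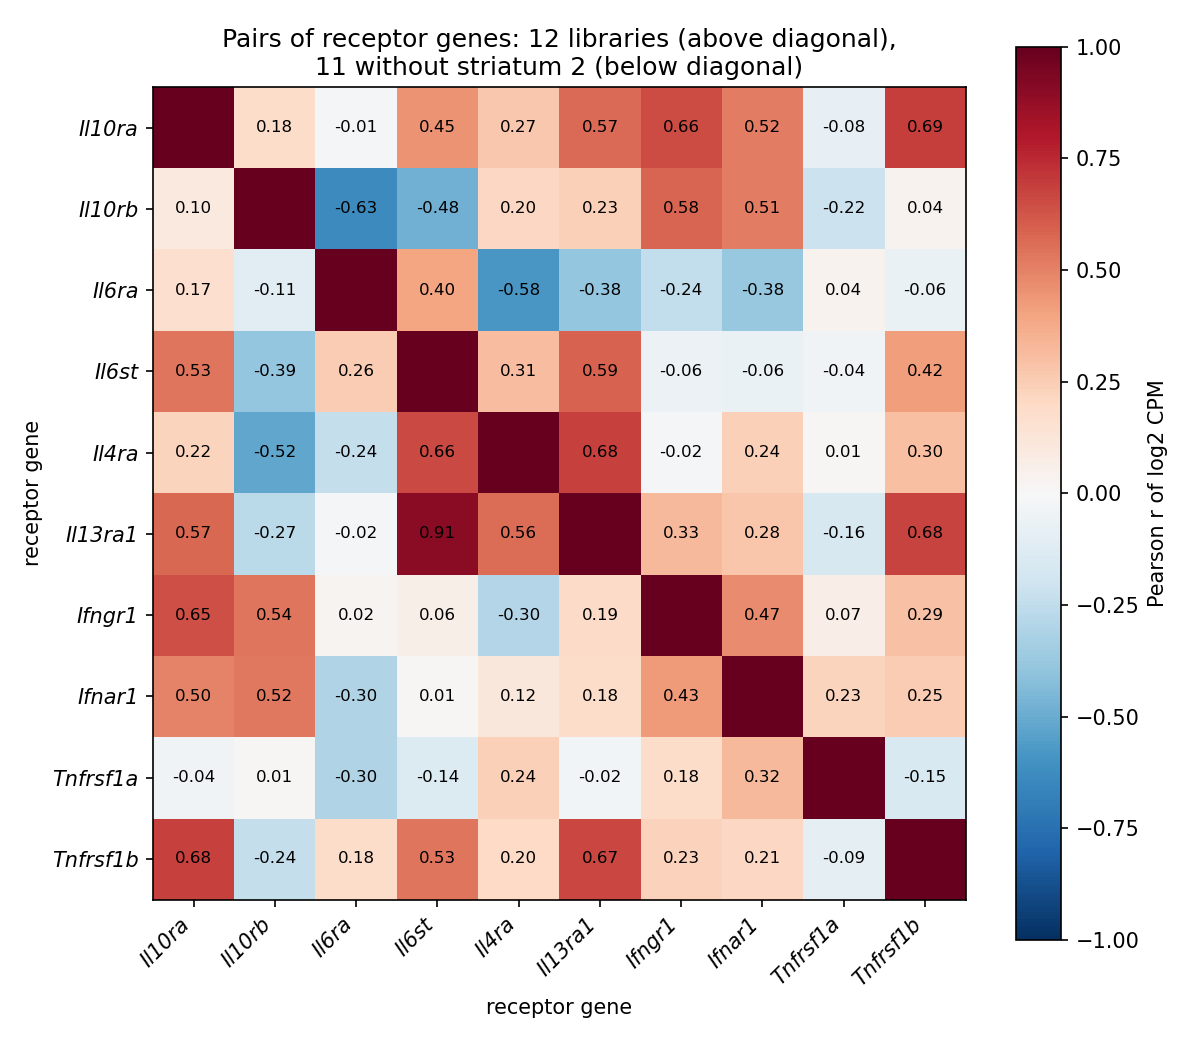
Pearson r of log2 CPM between pairs of receptor genes (both axes), over 12 libraries above the diagonal and over 11 without striatum 2 below it; red is positive and blue negative. Il10ra is nearest to Tnfrsf1b (0.69) and Ifngr1 (0.66), and the r of Il6st with Il13ra1 is 0.59 above the diagonal and 0.91 below it.

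Among themselves the receptor genes varied loosely. Over the 45 pairs the median r was 0.23, with 29 pairs above 0 and values from −0.63 to 0.69. The lowest, between Il10rb and Il6ra, was −0.11 without striatum 2. Il6st and Il13ra1 had r = 0.59, which was 0.91 without striatum 2, 0.10 without cortex 1 and 0.82 without both. Among chains of 1 receptor, Il6ra and Il6st had r = 0.40, or 0.26 without striatum 2. Il4ra and Il13ra1 had r = 0.68, or 0.56 without it.

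Most ligand genes were at or near 0. Il10, Ifng, Ifnb1, Ifna2 and Ifna4 were at 0 counts in each of the 12 libraries. A count of 0 leaves room for up to 0.485 CPM in the smallest library, by counting error alone. Il22, Il4, Il13 and Lta had at most 1, 3, 1 and 12 counts in any library. Tnf and Il6 were the ligand genes that passed the filter. Tnf, which binds both TNF receptors, averaged 8.59 ± 7.41 CPM in cerebellum, 6.72 ± 6.25 CPM in striatum, 13.5 ± 4.69 CPM in hippocampus and 18.2 ± 6.54 CPM in cortex, and Il6 averaged at most 2.67 CPM in a region. Neither passed (edgeR, adjusted p = 1.00 each over the 4 regions). For the mean of the other regions minus cortex, the log2 difference was −0.98 (SE 0.87) for Tnf and −0.53 (SE 1.02) for Il6. Il6 was lowest in striatum, at 0.106 CPM. Its mean in cortex, 1.34 CPM, was below those in cerebellum (2.34 CPM) and hippocampus (2.67 CPM).

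Other chains of cytokine receptors were tested for 25 of 38 listed genes, and 10 of the 25 were lowest in cortex, beside 23.2% of all genes. None was called in any pair of regions (edgeR, lowest adjusted p = 0.80), and their median log2 difference for the mean of the other regions minus cortex was 0.05, against −0.03 over all genes. The highest of them were Tnfrsf21, a death receptor, at 347 to 410.2 CPM as region means, Csf2ra, the GM-CSF binding chain, at 276 to 358 CPM, Ifngr2 and Il17ra. Of the JAK-STAT genes, 19 of 20 were tested, 9 were lowest in cortex and 0 were called, with a median of 0.11. In that contrast 293 of all genes had p under 0.05 before adjustment in edgeR, with 7 genes called by DESeq2 and 0 by limma-voom.

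Stat3, the transcription factor downstream of IL-10 and IL-6, was at 301 ± 15.2 CPM in cerebellum, 303 ± 39.4 CPM in striatum, 279 ± 61.0 CPM in hippocampus and 207 ± 70.9 CPM in cortex (SD, n = 3 each). Its log2 difference for the mean of the other regions minus cortex was 0.51 (SE 0.21), or 0.25 without cortex 1, it did not pass (edgeR, adjusted p = 1.00 over the 4 regions), and its r with Il10ra was 0.74. The kinases of the IL-10 receptor, Jak1 and Tyk2, were at 299 to 335 CPM and 118 to 162 CPM as region means, both lowest in cortex. Ptpn6, a phosphatase that dampens JAK signalling, was the most abundant of the list in CPM (760 to 835 CPM as region means), and Stat6, which acts downstream of Il4ra, had 266 to 323 CPM.

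Of the adaptors of TNF receptors, 14 of 15 were tested, 3 were lowest in cortex and 0 were called, with a median of −0.02. Ripk1, the kinase recruited by TNF receptor 1, was at 106 ± 31.8 CPM in cerebellum, 129 ± 27.0 CPM in striatum, 97.3 ± 12.1 CPM in hippocampus and 72.7 ± 28.5 CPM in cortex, with r = 0.64 with Il10ra. Casp8, an initiator caspase, was highest in hippocampus, at 368 ± 30.7 CPM, against 315 ± 15.9 CPM in cortex. Of 12 genes known to respond to IL-10 in macrophages, Il4ra among them, all were tested, 2 were lowest in cortex and 0 were called, with a median of −0.00155. Zfp36, which destabilises cytokine mRNAs, averaged 136 ± 6.14 CPM in cerebellum, 133 ± 6.63 CPM in striatum, 137 ± 6.70 CPM in hippocampus and 138 ± 27.5 CPM in cortex, and Sbno2, a corepressor, was lowest in hippocampus at 69.6 ± 7.80 CPM.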

How the data were processed

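As deposited by the authors, the data are raw counts of reads, with 1 value for each gene symbol in each of 12 libraries. The numbers of genes above 0 equalled the detected-gene numbers in the labels in all 12 libraries. The submitters' processing notes name Trim Galore 0.4.3, STAR 2.5.3a, Picard, HTSeq and the mm10 build; how strand was handled and which annotation was used is not given in the sources used here. Without strand, reads of genes overlapping Il10ra, Il10rb, Il6ra and Il4ra in the annotation could be counted with them or lost.

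The receptor genes and gene lists were chosen with earlier results of these data known. The analysis used edgeR 4.0.16 in R 4.3.3: filterByExpr, with a minimum count of 10 and a minimum total of 15, kept 12217 genes, library sizes were TMM-scaled, and a robust quasi-likelihood model with a mean per region was fitted to all 12 libraries. P-values were adjusted by Benjamini-Hochberg over every gene tested (threshold 0.05). CPM are TMM-scaled, and log2 CPM for correlations used a prior count of 2. Exon lengths and coordinates came from GENCODE vM21 (GRCm38), promoter windows from RefSeq (GRCm38.p6), with 8 of the 10 genes matched. All 10 receptor genes were named, and from each list up to 4 of the most abundant tested genes with the partner chains Il2rg, Ifngr2 and Ifnar2 and Jak1, Tyk2 and Stat3 (1 gene that the rule names is not reported here); for likeness, the 5 genes with the highest r (mean of at least 10 CPM, without predicted, RIKEN and ribosomal protein genes). Libraries with the same number were taken as pairs only for cerebellum and cortex. There the r of their deviations from the region means was 0.10 to 0.29 in the 3 pairs. Between libraries of different numbers, over all regions, it reached 0.20, and the labels do not say what a number marks. The fit was checked on simulated counts for cerebellum minus cortex. It called 7.24% of the genes changed 2-fold and 40.9% of those changed 4-fold. Genes that were not called may therefore still differ. Alternatives were DESeq2 1.42.0 (test and size factors), limma-voom 3.58.1, library totals, no filter, a smaller prior count, medians, a replicate block (also for cerebellum and cortex alone) and leaving out each library.

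Total counts were 6479839 to 14833340. A count of 0 was read as up to 3 counts. Since reads lack molecular identifiers they may repeat a molecule, and this limit covers counting error only. Libraries of a region differed beyond sampling noise (chi-square per degree of freedom 32.5 to 93.3), and none was treated as a copy.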

Additional observations from a re-analysis of the deposited data

How the results depend on the processing

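With DESeq2 in place of edgeR, the number of genes called was 5 over the 4 regions, 5 for hippocampus minus cortex, 13 for striatum minus cortex, 7 for cerebellum minus cortex, 2 for cerebellum minus hippocampus, 3 for cerebellum minus striatum and 7 for the mean of the other regions minus cortex, against 0 in each with edgeR. None of the 9 receptor genes other than Il10ra was among them. Over 18 alternatives their lowest adjusted p was 0.467 between pairs (Il13ra1, striatum minus cortex, DESeq2), 0.921 for the mean of the other regions minus cortex and 0.993 over the 4 regions. Leaving out each library in turn, edgeR called 0 to 0 genes in every comparison. The 10 receptor differences whose libraries did not overlap kept their sign in 180 of 180 values. This outcome was largely fixed in advance, since leaving out 1 library cannot reverse groups that do not overlap. Those of Il10ra against cortex were among them, the pattern for which it was selected, so nothing is read from it. With library totals the striatum minus cortex difference of Il10ra was 0.41. The number of receptor genes lowest in cortex, Il10ra included, was 6 to 7 when 1 library was left out and 4 per summed microglia markers. The median r with Il10ra was 0.22 to 0.50 when 1 library was left out and 0.013 per summed microglia markers, the scale added after seeing the data; the cause was not tested. With the replicate number as a block, the fit to all 12 libraries called 0 genes in every comparison. A fit with this block to the cerebellum and cortex libraries alone, added after seeing the data, also called 0 genes, with 861 at an unadjusted p under 0.05 in edgeR. Without the block, the same libraries gave 0 calls and 248 such genes, so that pairing changed no call. The SE was smaller with pairs, at 0.15 against 0.35 for Il6st and 0.20 against 0.36 for Il13ra1. In the other pairs of regions, same numbers did not pair the libraries (r of deviations −0.12 to 0.14), although 9 of all 12 libraries correlated best with their own number. With 3 libraries a region, the SE of a log2 difference in these 9 genes ran from 0.12 to 0.37, which limits what could be called.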
